A study of Mus musculus with 2 samples.

Results

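The genes described here are 40 genes in wide use as markers of blood vessel endothelium, given as a list of symbols and matched to the gene identifiers of a table of UMI counts from the somatic cells of foetal mouse gonads. All 40 were found among the 42422 genes of the table, and all 40 passed the filter on low counts that left 15125 genes for testing. The list holds VEGF receptors with their partner Nrp1, TIE receptors, transcription factors, junction and adhesion genes, surface glycoproteins and their matrix ligand, lipid-handling genes, G protein-coupled receptors with their partner, secreted factors and other endothelial genes.

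The libraries came from the GFP-negative somatic cells of E12.5 gonads from crosses of 129T2svJ males that carried Oct4-eGFP, a reporter of germ cells, with Swiss females. Cells were sorted without culture (0 h) or after culture for 24 or 72 h, the mesonephros was removed before the sort, and several gonads were pooled in each library. The groups were XX and XY gonads at 0 h, XX and XY gonads cultured with DMSO (the vehicle) for 24 or 72 h, and XY gonads given, for 24 or 72 h, 500 nM MEKi or 500 nM FGFRi. MEKi is PD0325901, an inhibitor of the kinases MEK1/2 that activate ERK1/2, and FGFRi is BGJ398, an inhibitor of FGF receptors. Each of the 10 groups had 4 libraries, and no group carried a targeted allele. Endothelial cells were not sorted, so every value is a level in the whole somatic fraction. There, fewer endothelial cells, less RNA per endothelial cell and RNA of the same gene from other cells cannot be told apart.

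Endothelial cells line every blood vessel. VE-cadherin and claudins join them to each other, VEGF acts on them through the receptor KDR and angiopoietins through TEK, and ETS transcription factors such as ERG and FLI1 maintain their identity. VEGF receptors signal in part through the RAF, MEK and ERK kinases. In the foetal testis, endothelial cells enter from the mesonephros, build a large coelomic vessel and spread between the forming cords.

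The libraries held 1380707 to 4836550 UMIs, with a median of 2248854, and the highest UMI count of a member in any library was 683. Levels are CPM, counts scaled to library size after TMM, given as mean ± SD with n = 4. Changes are log2 fold changes ± SE from an edgeR quasi-likelihood fit of all 40 libraries, and a gene is said to have risen or fallen, or to be called, where the Benjamini-Hochberg adjusted p over all tested genes was below 0.05 and the fold at least 1.5. Counts at an unadjusted p below 0.05 are given for the 40 genes only, without the share over all tested genes. The 0 h, 24 h DMSO and 24 h MEKi libraries were sequenced in one pool and the 24 h FGFRi and all 72 h libraries in another. The 24 h MEKi library M2 is given by the barcode list but is not among the 19 names in the description of its pool of 20. No label ties a library to a litter or culture day, so p-values measure the spread between pooled samples.

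RefSeq promoter windows (GRCm38.p6, 250 bases before to 50 bases after the start) were matched for 25 of the 40 genes and searched on both strands for the ETS core GGAAGT, the FOX:ETS composite AACAGGAA, a motif known from endothelial enhancers, and the AP-1 site TGANTCA. The ETS core was in 7 of 25 members (28%) and in 26.5% of the 27025 genes with windows. The composite was in 4 members (16%) and 2.96% of genes, and the AP-1 site in 1 member (4%) and 8.97% of genes. The promoters below are those of 2 VEGF receptors (Flt1 and Kdr), of the TIE receptors (Tie1 and Tek), of Emcn and of Kcne3. Emcn was not called at 72 h. Kcne3 was called at both times and was the only matched member with an AP-1 site. The printed promoters do not stand for the 25 in how often they hold a motif. The 250 bases before the start are printed 5′ to 3′ on the gene's strand, with matches to a motif on either strand in capitals. They lie at chr5:147726012-147726261 (minus strand) for Flt1, chr5:75978456-75978705 (minus strand) for Kdr, chr4:118489850-118490099 (minus strand) for Tie1, chr4:94739039-94739288 (plus strand) for Tek, chr3:137340828-137341077 (plus strand) for Emcn and chr7:100176420-100176669 (plus strand) for Kcne3.
Flt1: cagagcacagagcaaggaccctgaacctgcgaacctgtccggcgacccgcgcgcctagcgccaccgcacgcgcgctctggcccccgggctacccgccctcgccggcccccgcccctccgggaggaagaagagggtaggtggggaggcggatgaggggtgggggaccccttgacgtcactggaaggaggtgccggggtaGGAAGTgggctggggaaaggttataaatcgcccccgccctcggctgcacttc
Kdr: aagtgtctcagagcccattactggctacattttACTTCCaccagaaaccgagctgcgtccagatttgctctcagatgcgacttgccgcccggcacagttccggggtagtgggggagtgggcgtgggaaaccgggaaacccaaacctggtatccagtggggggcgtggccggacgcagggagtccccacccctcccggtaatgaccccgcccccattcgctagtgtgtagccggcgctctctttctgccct
Tie1: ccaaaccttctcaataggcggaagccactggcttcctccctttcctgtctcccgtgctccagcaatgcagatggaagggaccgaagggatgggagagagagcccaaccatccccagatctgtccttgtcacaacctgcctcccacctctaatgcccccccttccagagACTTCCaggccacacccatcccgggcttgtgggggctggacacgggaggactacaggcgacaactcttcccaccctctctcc
Tek: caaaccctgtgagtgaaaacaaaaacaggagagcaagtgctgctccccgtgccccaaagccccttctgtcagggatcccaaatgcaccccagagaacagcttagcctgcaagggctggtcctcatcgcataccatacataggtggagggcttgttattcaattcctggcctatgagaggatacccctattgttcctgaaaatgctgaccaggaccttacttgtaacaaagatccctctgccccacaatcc
Emcn: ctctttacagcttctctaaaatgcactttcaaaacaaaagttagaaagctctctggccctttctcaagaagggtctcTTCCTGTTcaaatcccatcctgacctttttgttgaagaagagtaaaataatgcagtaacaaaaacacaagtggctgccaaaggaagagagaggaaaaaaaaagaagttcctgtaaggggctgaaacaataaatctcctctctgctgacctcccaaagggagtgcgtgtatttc
Kcne3: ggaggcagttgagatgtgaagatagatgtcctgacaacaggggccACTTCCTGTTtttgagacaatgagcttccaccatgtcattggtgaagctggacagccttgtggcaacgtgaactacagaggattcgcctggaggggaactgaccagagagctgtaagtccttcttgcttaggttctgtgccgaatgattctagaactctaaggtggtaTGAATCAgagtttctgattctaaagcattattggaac
Flt1, Kdr and Tie1 held an ETS core, Emcn held a FOX:ETS composite, Kcne3 held all 3 motifs, of which the ETS core and the composite overlap, and Tek held none. Kcne3 has a second window, not printed, that held no motif. No window was given for Pecam1, Cd93, Ramp2, Mmrn2, Icam2, Fli1, Aplnr, Gpihbp1, S1pr1, Fabp4, Ecscr, Plvap, Cdh5, Arhgef15 and Esam.

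Summed over the 40 genes, the level was 787 ± 64.5 CPM in XY and 573 ± 106 CPM in XX gonads at 0 h. In DMSO it was 994 ± 142 CPM in XY and 471 ± 49.7 CPM in XX gonads at 24 h, and 688 ± 118 CPM and 437 ± 35.8 CPM at 72 h. With MEKi it was 328 ± 23.9 CPM at 24 h and 399 ± 21.99 CPM at 72 h, and with FGFRi 811 ± 145 CPM and 516 ± 73.7 CPM. The MEKi libraries (297 to 353 CPM at 24 h and 378 to 429 CPM at 72 h) lay below all XY DMSO libraries of the same time (844 to 1123 CPM and 514 to 772 CPM). Nrp1 alone supplied 30.2% to 36.4% of the sum in the 72 h MEKi libraries, so the sum does not stand for the single genes.

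**Figure D1:**
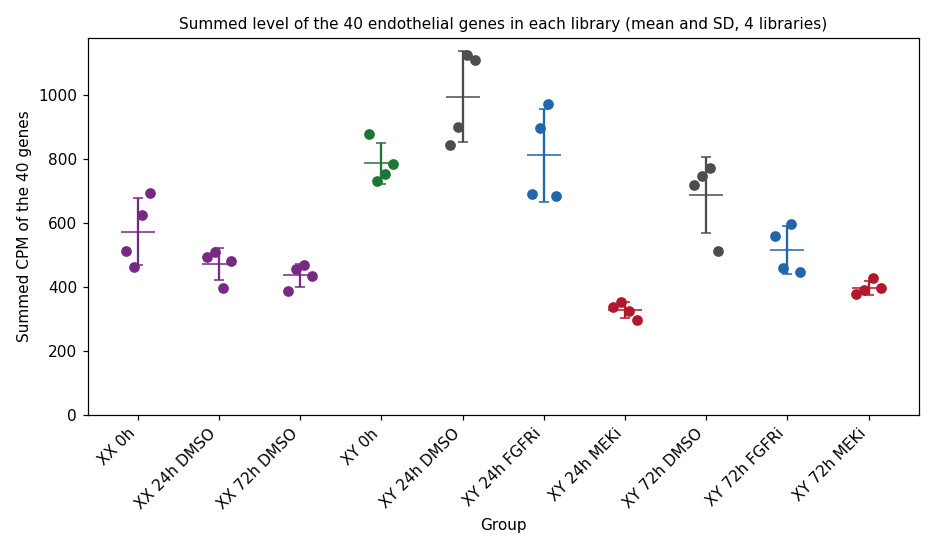
Summed level of the 40 genes in CPM (vertical axis) in each library of the 10 groups (horizontal axis), with a point for each library, the mean as a line and the SD as bars. The 24 h MEKi libraries sit between 297 and 353 CPM, below the XY DMSO libraries of 24 h.

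**Figure D2:**
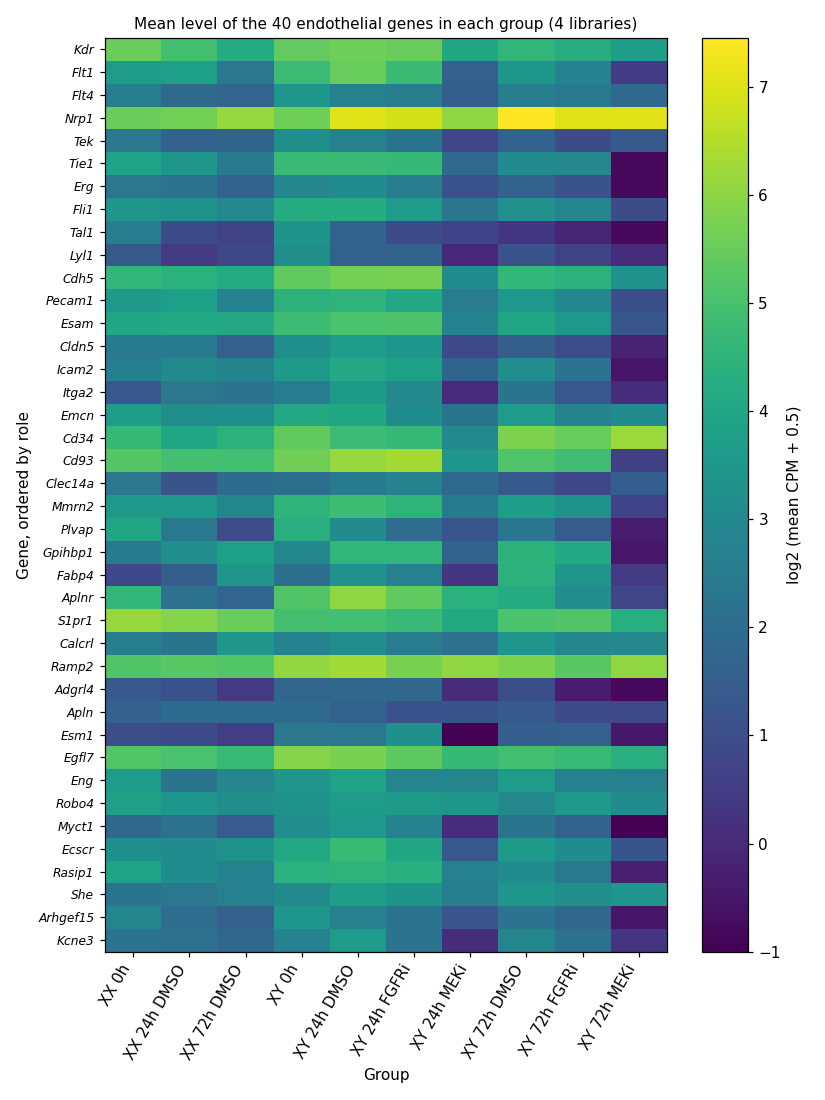
Mean level of each of the 40 genes (rows) in each of the 10 groups (columns), coloured by log2 of the mean CPM plus 0.5. At 72 h Tie1 was at 8.01 CPM in DMSO and 0.0785 CPM with MEKi, and Nrp1 at 175 and 136 CPM.

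Over the first day in DMSO, 6 of the 40 genes rose in XY gonads and 4 fell, compared with 8.9% and 5.5% of all tested genes. The median log2 change of the 40 was 0.22, against 0.03 over all genes. Nrp1, a co-receptor for VEGF and semaphorins, rose from 47.9 ± 7.68 to 133 ± 30.0 CPM, and Flt1, a VEGF receptor that acts largely as a decoy, from 27.1 ± 5.33 to 44.8 ± 13.6 CPM. Aplnr, the apelin receptor, rose from 35.5 ± 9.07 to 66.7 ± 14.4 CPM, and Itga2, Gpihbp1 and Fabp4 rose as well. The genes that fell were Tal1 (9.96 ± 3.27 to 2.72 ± 0.905 CPM) and Lyl1 (8.56 ± 2.62 to 2.60 ± 0.484 CPM), which encode transcription factors of endothelium and blood, Cd34 and Plvap. Of 16 alternatives, the call was lost in 10 for Flt1, 9 for Fabp4, 8 for Itga2 and 7 for Cd34. Summed erythroid markers were 14805 to 18695 CPM at 0 h and 2751 to 7947 CPM at 24 h, with 9 of 9 erythroid genes falling, and pericyte genes rose (6 of 8). In XX gonads none rose and 6 fell (Kdr, Tal1, Cd34, Plvap, Aplnr and Eng), compared with 5.46% and 2.27% of all genes, and edgeR gave 1 member higher at an unadjusted p below 0.05. The XX count was 3 without 0 h library F5 and 3 with the replicate block, whose fit held 29 of the 40 genes, and the Kdr call was lost in 7 of 16 alternatives. In XX gonads the summed erythroid level was 8701 to 15535 CPM at 0 h and 966 to 2218 CPM at 24 h, with 9 of 9 erythroid genes and 4 of 9 macrophage genes falling. The part of these cells in the changes of the 40 genes was not tested.

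MEKi lowered most of the list within 24 h. In XY gonads 31 of the 40 genes fell and none rose, compared with 1.98% and 1.29% of all tested genes, and all 40 log2 changes were negative. Their median was -1.99, a 3.98-fold fall, against -0.01 over all genes. Every MEKi library was below every DMSO library for 34 genes (4.77% of all genes), and at an unadjusted p below 0.05 edgeR gave 36 lower and 0 higher.

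At 72 h 27 genes were lower with MEKi and none was called higher, compared with 4.19% and 2.29% of all genes, and edgeR gave 29 lower and 1 higher at an unadjusted p below 0.05. The median log2 change was -2.70, a 6.48-fold fall, against 0.00306 over all genes. Libraries did not overlap for 24 genes that were lower (8.24% of all genes) and for Ramp2, which was higher (8.93%). At both times 26 genes fell, 5 fell at 24 h and were not called at 72 h (Nrp1, Tek, Emcn, Cd34 and She), Arhgef15 was called at 72 h and not at 24 h, and 8 were called at neither time (Flt4, Tal1, Lyl1, Clec14a, Calcrl, Ramp2, Apln and Robo4). With voom and treat, the approach of the study, 13 of the 40 were called at 72 h.

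**Figure D3:**
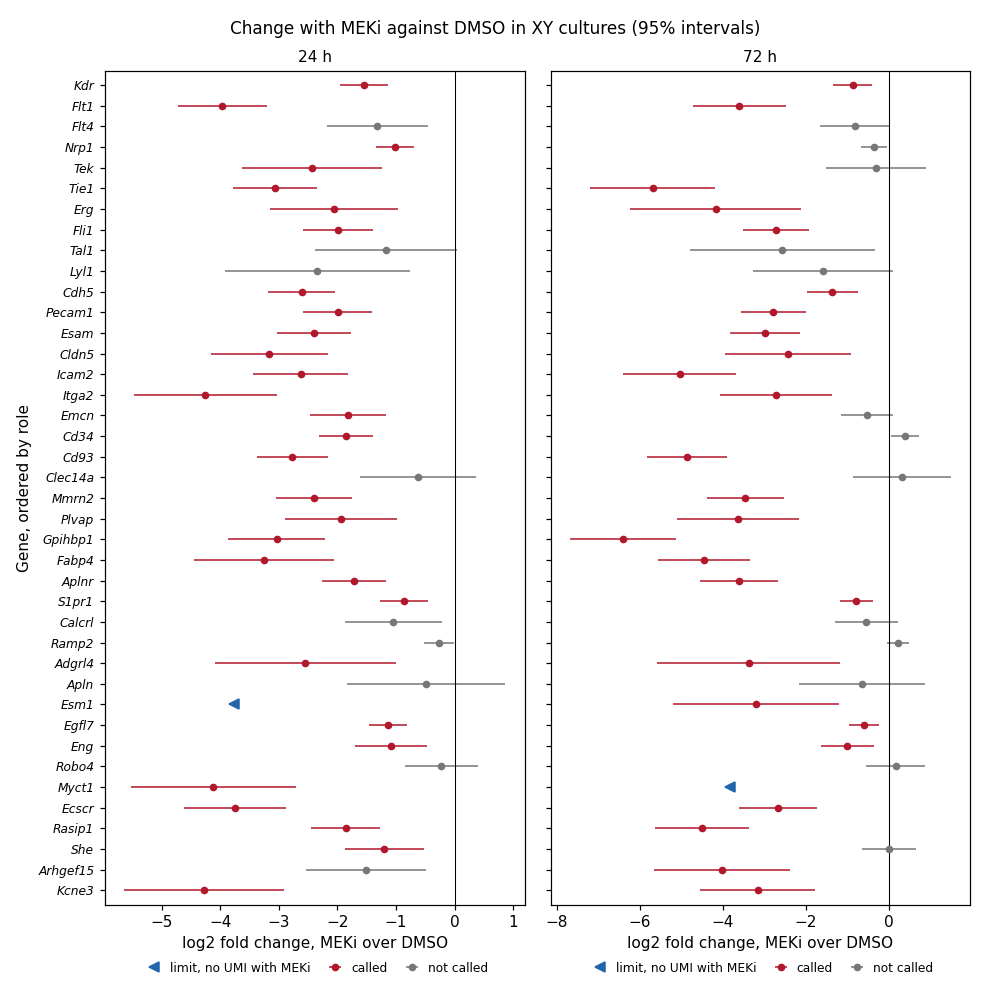
Log2 fold change of each of the 40 genes between MEKi and DMSO in XY gonads at 24 h and 72 h, with 95% intervals as bars, red where the gene was called and grey where it was not. Blue triangles, with no bar, mark the limits for Esm1 at 24 h (at most -3.77) and Myct1 at 72 h (at most -3.84), which had no UMI with MEKi, and the other points run from -4.28 to -0.22 at 24 h and from -6.40 (Gpihbp1) to 0.38 (Cd34) at 72 h.

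Of the VEGF receptors, Kdr and Flt1 fell at both times. Kdr (ENSMUSG00000062960.10, GRCm39 chr5:76093487-76139884), the main signalling receptor for VEGF, was 42.1, 47.2, 55.4 and 47.8 CPM in the DMSO libraries and 18.6, 13.9, 17.5 and 15.5 CPM with MEKi at 24 h. At 72 h it was 27.0, 28.3, 21.4 and 15.7 CPM in DMSO and 18.96, 14.1, 10.4 and 7.01 CPM with MEKi. The groups were apart at 24 h (-1.55 ± 0.21, adjusted p = 4.19e-07) and overlapped at 72 h (-0.88 ± 0.23, adjusted p = 0.00874), where the call was lost without DMSO library M2. Flt1 (ENSMUSG00000029648.13, GRCm39 chr5:147498414-147662826) was 34.2, 31.8, 56.7 and 56.4 CPM in DMSO and 0, 1.33, 5.14 and 3.65 CPM with MEKi at 24 h. At 72 h Flt1 was 7.997, 13.9, 12.97 and 8.09 CPM in DMSO and 0.948, 0.382, 0.628 and 1.62 CPM with MEKi. No MEKi library reached the DMSO range at either time, and Flt1 changed by -3.96 ± 0.38 (adjusted p = 7.98e-11) and -3.60 ± 0.56 (adjusted p = 7.18e-06).

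Nrp1 was 91.6, 160.1, 131 and 149 CPM in DMSO and 61.1, 77.7, 76.0 and 48.3 CPM with MEKi at 24 h, and 191, 182, 174 and 154 CPM and 114, 133, 156 and 141 CPM at 72 h. The groups were apart at 24 h, with a log2 change of -1.02 ± 0.16, and overlapped at 72 h, with a change of -0.36 ± 0.15 that was not called (adjusted p = 0.106). Flt4, the VEGF-C receptor of lymphatic and sprouting endothelium, was 6.07 ± 1.70 CPM in DMSO and 2.35 ± 1.49 CPM with MEKi at 24 h, and 5.66 ± 1.97 and 3.22 ± 0.539 CPM at 72 h, with neither difference called.

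Tie1 and Tek, the TIE receptors, were both lower at 24 h and had different values at 72 h. Tie1 (ENSMUSG00000033191.14, GRCm39 chr4:118328385-118347261), an orphan receptor that pairs with TEK, was 20.3, 18.9, 38.3 and 28.4 CPM in DMSO and 3.91, 2.66, 2.06 and 4.10 CPM with MEKi at 24 h. At 72 h it was 6.33, 10.4, 11.5 and 3.81 CPM in DMSO and 0, 0, 0.314 and 0 CPM with MEKi, so that a single UMI was left in the MEKi group. That UMI against 71 in DMSO is a 76.0-fold ratio with a 95% counting interval of 13.2 to 3045, and the log2 changes were -3.07 ± 0.36 and -5.69 ± 0.75 (adjusted p = 2.53e-07). Tek (ENSMUSG00000006386.15, GRCm39 chr4:94627291-94763224), the angiopoietin receptor, was 4.28, 6.71, 6.90 and 5.83 CPM in DMSO and 1.96, 2.66, 0.343 and 0 CPM with MEKi at 24 h, and 1.67, 3.48, 3.99 and 1.43 CPM and 0.474, 1.15, 2.83 and 3.77 CPM at 72 h. Tek was lower in every MEKi library at 24 h (-2.43 ± 0.60, adjusted p = 0.00757, not called without MEKi library M6), and at 72 h the groups overlapped (-0.32 ± 0.60, 95% interval -1.52 to 0.88).

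Of the transcription factors, the ETS factors Fli1 and Erg fell at both times. Fli1 was 18.2 ± 4.47 CPM in DMSO and 4.55 ± 1.68 CPM with MEKi at 24 h, and 9.10 ± 2.10 and 1.42 ± 0.974 CPM at 72 h (log2 changes -1.98 ± 0.30 and -2.73 ± 0.40). Erg was 8.04 ± 2.01 and 1.71 ± 1.397 CPM at 24 h (-2.06 ± 0.55, not called without MEKi library M1 or M2). At 72 h 25 UMIs of Erg in DMSO stood against 1 with MEKi, a 26.8-fold ratio with a 95% counting interval of 4.38 to 1099. Tal1 (2.72 ± 0.905 and 1.14 ± 0.565 CPM at 24 h) and Lyl1 (2.60 ± 0.484 and 0.456 ± 0.912 CPM) were low after culture and not called at either time.

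All 6 junction and adhesion genes fell at both times. Cdh5 (ENSMUSG00000031871.9, GRCm39 chr8:104828231-104871143), which encodes VE-cadherin, was 45.6, 46.7, 61.3 and 50.2 CPM in DMSO and 6.85, 9.30, 11.6 and 5.01 CPM with MEKi at 24 h. At 72 h Cdh5 was 24.99, 21.9, 32.4 and 15.7 CPM in DMSO and 7.58, 9.55, 7.85 and 12.4 CPM with MEKi. The groups were apart at both times, with log2 changes of -2.61 ± 0.29 (adjusted p = 3.05e-09) and -1.37 ± 0.30 (adjusted p = 0.00169). Pecam1, an adhesion molecule of endothelium and platelets, was 15.3, 20.1, 28.4 and 24.9 CPM in DMSO and 8.31, 3.99, 4.796 and 5.01 CPM with MEKi at 24 h. At 72 h Pecam1 was 10.00, 16.4, 11.97 and 5.71 CPM in DMSO and 1.90, 1.91, 0.942 and 1.62 CPM with MEKi. Its groups were also apart at both times, with log2 changes of -1.999 ± 0.29 and -2.78 ± 0.39.

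Itga2, a subunit of a collagen receptor, was 9.98, 14.2, 13.98 and 8.94 CPM in DMSO and 1.47, 0, 0.685 and 0 CPM with MEKi at 24 h, and 3.33, 5.47, 6.48 and 2.38 CPM and 0.474, 1.53, 0.314 and 0 CPM at 72 h. The groups did not overlap at either time (log2 changes -4.26 ± 0.61 and -2.73 ± 0.67). Icam2, an adhesion molecule for leukocytes, changed by -2.63 ± 0.40 at 24 h and -5.04 ± 0.68 at 72 h, when 77 UMIs in DMSO stood against 2 with MEKi, a 41.2-fold ratio with a 95% counting interval of 11.03 to 347. The tight junction genes Esam and Cldn5 changed by -2.41 ± 0.31 and -3.17 ± 0.50 at 24 h and by -2.99 ± 0.42 and -2.43 ± 0.75 at 72 h. The Cldn5 call at 72 h was lost without DMSO library M4 or M5 or MEKi library M3 or M5.

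Among the surface glycoproteins and their ligand, 5 of 6 fell at 24 h and 3 of 6 at 72 h. Emcn, a sialomucin of capillaries and veins, was 14.3, 12.9, 22.6 and 13.6 CPM in DMSO and 1.47, 5.98, 7.88 and 2.28 CPM with MEKi at 24 h. At 72 h Emcn was 9.33, 16.4, 13.5 and 8.57 CPM in DMSO and 11.4, 9.55, 6.59 and 4.85 CPM with MEKi. It fell at 24 h (-1.82 ± 0.32), and at 72 h the groups overlapped (-0.54 ± 0.31, 95% interval -1.16 to 0.08). Plvap, which forms the diaphragms of fenestrated vessels, was 12.1, 6.46, 6.90 and 6.61 CPM in DMSO and 1.47, 0.664, 3.08 and 2.28 CPM with MEKi at 24 h. At 72 h Plvap was 2.00, 5.47, 5.98 and 4.76 CPM in DMSO and 0, 0, 0.628 and 0.539 CPM with MEKi. Its groups were apart at both times (-1.94 ± 0.48 and -3.64 ± 0.73), and its UMIs at 72 h gave a 13.9-fold ratio with a 95% counting interval of 4.43 to 70.4.

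Cd34, a sialomucin that stromal cells also carry, was 27.1 ± 7.13 CPM in DMSO and 7.41 ± 1.65 CPM with MEKi at 24 h (-1.85 ± 0.23), and 55.3 ± 9.49 and 72.1 ± 11.3 CPM at 72 h (0.38 ± 0.17, adjusted p = 0.13, not called). Cd93, a lectin-like receptor, was 70.3 ± 16.1 and 10.1 ± 1.61 CPM at 24 h and 34.6 ± 16.4 and 1.01 ± 0.656 CPM at 72 h, with log2 changes of -2.77 ± 0.30 and -4.87 ± 0.48. Mmrn2, a matrix protein that binds CD93 and CLEC14A, fell by 2.41 ± 0.32 and 3.46 ± 0.46 on the log2 scale. Clec14a was 5.01 ± 1.48 and 3.20 ± 0.943 CPM at 24 h and 1.99 ± 1.41 and 2.38 ± 1.79 CPM at 72 h, and was called at neither time.

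**Figure D4:**
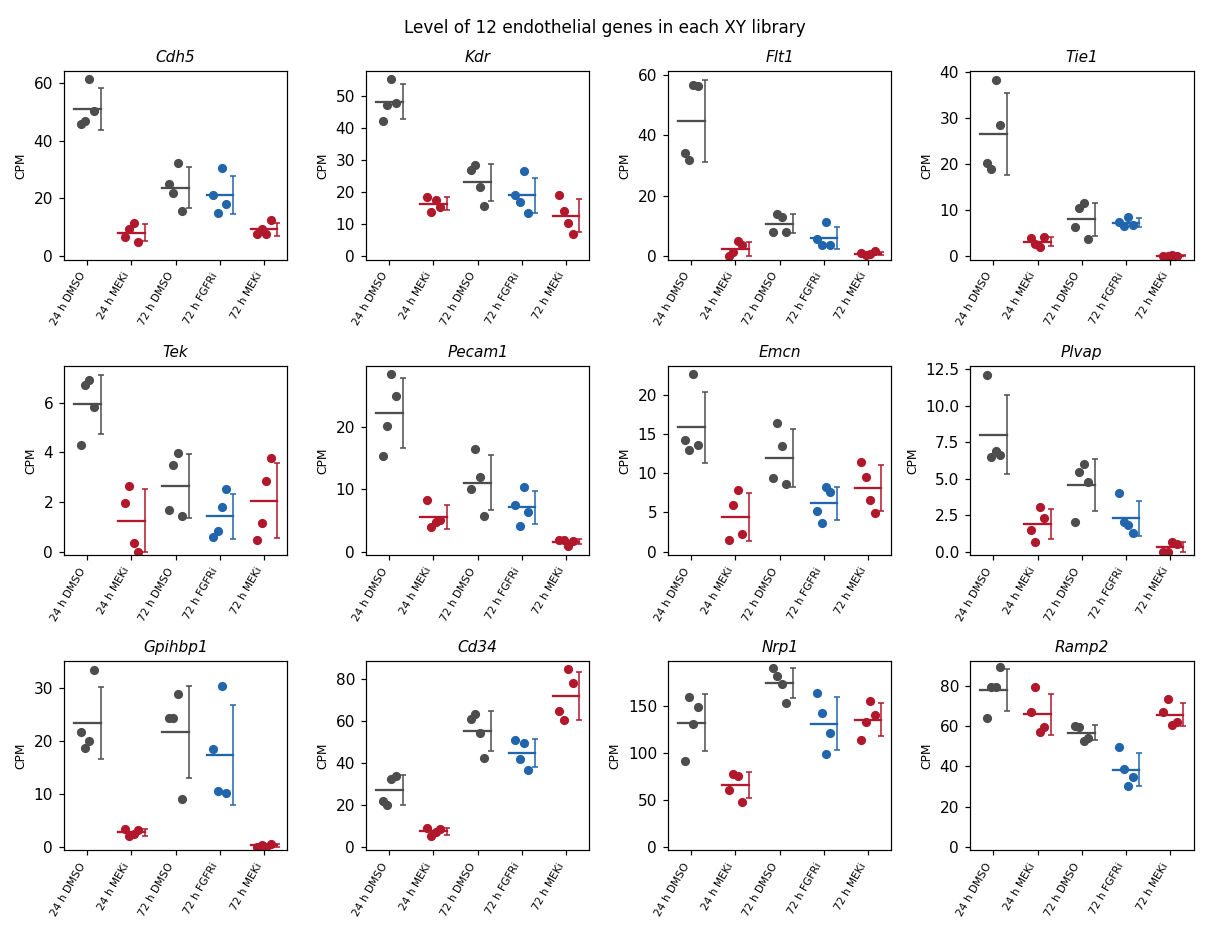
CPM (vertical axes) of 12 of the genes in each XY library of 24 h DMSO, 24 h MEKi, 72 h DMSO, 72 h FGFRi and 72 h MEKi, with a point for each library, the mean as a line and the SD as bars cut at 0. Tie1, Gpihbp1 and Plvap were at or near 0 in the 72 h MEKi libraries, where Kdr, Tek, Emcn and Nrp1 overlapped DMSO.

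Both lipid-handling genes fell at both times. Gpihbp1 (ENSMUSG00000022579.10, GRCm39 chr15:75468474-75471331), which carries lipoprotein lipase to the capillary lumen, was 21.7, 18.6, 19.9 and 33.4 CPM in DMSO and 3.42, 1.99, 2.40 and 3.19 CPM with MEKi at 24 h. At 72 h Gpihbp1 was 24.3, 24.4, 28.9 and 9.04 CPM in DMSO and 0, 0.382, 0 and 0.539 CPM with MEKi. The 199 UMIs in DMSO against 2 with MEKi at 72 h are a 107-fold ratio with a 95% counting interval of 29.1 to 886, and the log2 changes were -3.04 ± 0.41 and -6.40 ± 0.64 (adjusted p = 2.24e-10). Fabp4, a fatty acid carrier, was 9.15 ± 0.910 and 0.758 ± 0.980 CPM at 24 h and 21.2 ± 9.82 and 0.861 ± 0.638 CPM at 72 h (-3.26 ± 0.60 and -4.46 ± 0.55).

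Of the 5 G protein-coupled receptors and partners, Aplnr, S1pr1 and Adgrl4 fell at both times. Aplnr was 66.7 ± 14.4 and 20.6 ± 5.01 CPM at 24 h and 18.0 ± 5.67 and 1.21 ± 1.25 CPM at 72 h (-1.71 ± 0.27 and -3.61 ± 0.47), and its gene model overlaps Lrrc55os on the same strand, so its counts are less certain. S1pr1, the receptor for sphingosine-1-phosphate, changed by -0.86 ± 0.20 and -0.79 ± 0.20. Adgrl4, an adhesion receptor with at most 19 UMIs in a library, changed by -2.55 ± 0.77 (adjusted p = 0.0429) and -3.38 ± 1.10 (adjusted p = 0.0351), and lost its call in 10 of 14 alternatives at 24 h and 8 of 14 at 72 h.

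Ramp2 and Calcrl, which together form a receptor for adrenomedullin, were not called. Ramp2 was 63.8, 79.5, 79.3 and 89.4 CPM in DMSO and 67.0, 79.7, 56.9 and 59.7 CPM with MEKi at 24 h, and 59.98, 59.6, 52.9 and 54.3 CPM and 66.8, 73.8, 60.6 and 62.0 CPM at 72 h. The groups overlapped at 24 h (-0.26 ± 0.13, adjusted p = 0.311), and at 72 h all MEKi libraries were above DMSO (0.21 ± 0.13, adjusted p = 0.314). The gene model of Ramp2 overlaps Vps25 on the same strand, and reads of the 2 genes may have been mixed. Calcrl was 8.36 ± 1.45 and 3.93 ± 1.83 CPM at 24 h, with groups that did not overlap (-1.05 ± 0.41, adjusted p = 0.157), and 10.3 ± 5.03 and 7.34 ± 3.52 CPM at 72 h.

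Of the secreted factors, Esm1 (endocan, made by sprouting tip cells) was 2.50, 2.49, 6.70 and 6.61 CPM in DMSO at 24 h and had no UMI in any MEKi library. Against the 3 counts over the group that a count of 0 allows, its 69 UMIs in DMSO make Esm1 at least 13.6-fold lower with MEKi. At 72 h Esm1 was 1.67, 4.97, 1.99 and 0.952 CPM in DMSO and 0.948, 0, 0 and 0 CPM with MEKi, without overlap (-3.21 ± 0.99, adjusted p = 0.0278), and the call was lost without DMSO library M4 or without MEKi library M3, M4 or M5. Apln, the apelin ligand of tip cells, was 0.713, 2.24, 4.60 and 2.72 CPM in DMSO and 1.47, 0.664, 2.40 and 2.74 CPM with MEKi at 24 h. At 72 h Apln was 4.00, 0.497, 2.49 and 1.43 CPM in DMSO and 1.42, 2.29, 1.57 and 0 CPM with MEKi. Its groups overlapped at both times, and the 95% intervals of its log2 change, -1.84 to 0.87 and -2.16 to 0.87, include a fall as large as that of Kdr at 24 h. Egfl7, a matrix factor of vessel tubes whose gene model overlaps Gm20532 and Mir126a, changed by -1.14 ± 0.16 and -0.61 ± 0.18.

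Among the other endothelial genes, Myct1, a membrane protein of endothelium, was 9.98, 5.72, 14.2 and 13.998 CPM in DMSO and 0, 0, 0 and 2.28 CPM with MEKi at 24 h (-4.12 ± 0.70). At 72 h Myct1 was 4.33, 4.47, 5.98 and 2.86 CPM in DMSO and had no UMI in any MEKi library, at least 14.3-fold lower against 3 counts over the group. Kcne3, a potassium channel subunit, was 7.84, 9.20, 9.96 and 22.6 CPM in DMSO and 0.489, 0, 0 and 1.82 CPM with MEKi at 24 h. At 72 h Kcne3 was 5.33, 7.46, 9.47 and 5.24 CPM in DMSO and 0.948, 0.382, 0.942 and 0.539 CPM with MEKi. Its groups were apart at both times (-4.28 ± 0.68 and -3.16 ± 0.69).

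Rasip1, which vessels need to form a lumen, changed by -1.86 ± 0.29 at 24 h and -4.51 ± 0.57 at 72 h, when 74 UMIs in DMSO stood against 3 with MEKi, a 26.4-fold ratio with a 95% counting interval of 8.69 to 131. Its gene model overlaps Izumo1 on the same strand. Arhgef15 was 5.92 ± 0.891 and 1.87 ± 1.26 CPM at 24 h (not called) and 4.21 ± 1.88 and 0.214 ± 0.24996 CPM at 72 h (-4.02 ± 0.81). Ecscr, a surface sialoprotein of endothelium, changed by -3.75 ± 0.44 and -2.67 ± 0.47, and Eng, a TGF-beta co-receptor, by -1.09 ± 0.30 and -1.01 ± 0.32, with the Eng calls lost in 6 and 6 of 16 alternatives.

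Robo4, a receptor linked to vessel stability, was 10.3, 8.45, 16.3 and 13.998 CPM in DMSO and 9.29, 12.6, 10.6 and 10.0 CPM with MEKi at 24 h, and 8.33, 3.98, 10.5 and 6.66 CPM and 7.58, 7.64, 11.9 and 4.85 CPM at 72 h. Its groups overlapped at both times, with 95% intervals of the log2 change of -0.85 to 0.40 and -0.55 to 0.86. She, an adaptor gene, was 11.8, 15.4, 13.6 and 11.3 CPM in DMSO and 8.31, 4.65, 7.54 and 1.82 CPM with MEKi at 24 h, and 13.7, 13.9, 5.98 and 6.66 CPM and 8.53, 10.7, 10.99 and 10.2 CPM at 72 h. Its groups were apart at 24 h (-1.20 ± 0.33, adjusted p = 0.025, lost in 6 of 16 alternatives) and overlapped at 72 h (95% interval -0.65 to 0.64).

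Whether the MEKi change itself differed between 72 h and 24 h was tested as an interaction, and 2 of the 40 genes were called, compared with 1.41% of all genes. The change of Cd34 was higher at 72 h by 2.23 ± 0.29 on the log2 scale (adjusted p = 2.01e-06), and that of Rasip1 lower by 2.65 ± 0.72 (adjusted p = 0.0426), a call lost in 15 of 24 alternatives. At an unadjusted p below 0.05 edgeR gave 9 higher and 7 lower. The differences for Tie1 (-2.62 ± 1.06), Gpihbp1 (-3.36 ± 1.00) and Cdh5 (1.24 ± 0.43) had adjusted p-values of 0.227, 0.0707 and 0.145.

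To ask whether the 40 genes fell with MEKi by a single factor, each was compared with the summed counts of the other 39, so that 0 means a change equal to that of the others together. At 24 h 15 genes were called lower relative to the others and 4 higher, and the 95% interval left out 0 for 20 of 40. At 72 h 23 were called lower and 4 higher, and the interval left out 0 for 28. These counts depend on the reference, to which few genes give a large share. In the 72 h MEKi group most of the summed 399 CPM came from Nrp1 (136 CPM), Cd34 (72.1 CPM) and Ramp2 (65.8 CPM). None of these genes was called against DMSO at 72 h on the plain scale. RNA of a member from cells other than endothelium would also enter the relative changes, and its part was not tested. Against the sum of 6 widely used endothelial genes (Cdh5, Pecam1, Tie1, Esam, Clec14a and Egfl7) 12 were called lower and 8 higher at 24 h, and 18 and 9 at 72 h. The share of all genes called against these 6 is not given here, so the counts have no background beside them. Pecam1, Fli1, Itga2 and Ecscr, called lower at 72 h against the other 39, lay -0.09, -0.03, -0.03 and 0.03 from the members' median log2 change. Against the summed members 94% of all genes at 24 h and 59.9% at 72 h were called higher, since the summed reference itself fell, and 0.344% and 0.939% lower.

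At 24 h the lowest values relative to the others among the 39 genes with UMIs in the MEKi group, with 95% intervals, were those of Itga2 (-2.74, -4.04 to -1.44), Kcne3 (-2.71, -4.08 to -1.35), Myct1 (-2.55, -3.95 to -1.16) and Flt1 (-2.41, -3.12 to -1.69). The genes called higher were Ramp2 (1.54, 1.17 to 1.91), Robo4 (1.42, 0.80 to 2.04), S1pr1 (0.76, 0.30 to 1.22) and Nrp1 (0.68, 0.27 to 1.09), and the interval of Kdr (0.05, -0.40 to 0.50) included 0. Esm1, with no UMI there, was at most -2.15 against 3 counts over the group. At 72 h the lowest were Gpihbp1 (-5.74, -6.92 to -4.56), Tie1 (-5.09, -6.51 to -3.67), Icam2 (-4.35, -5.69 to -3.01) and Cd93 (-4.18, -4.95 to -3.42), and Myct1, with no UMI with MEKi, was at most -3.07. The genes called higher were Cd34 (1.33, 0.94 to 1.71), Ramp2 (1.11, 0.74 to 1.49), Robo4 (0.93, 0.25 to 1.60) and She (0.79, 0.12 to 1.47), none of which was called against DMSO on the plain scale at that time. Relative calls at 72 h were lost in 5 of 10 alternatives for each of Adgrl4, Cdh5, Cldn5, Esm1 and She. In addition the sign reversed in 2 of the 10 for Cdh5 and in 1 for Cldn5. The 10 include subtraction of the members' median, which gives a value without a call. An exact two-sided permutation test of the ratio in 4 against 4 libraries gave p = 0.0286, the smallest it can give, for 13 genes at 24 h and 24 at 72 h. The test gives that p whenever the ratios of the groups do not overlap, and the share of all genes without overlap was not computed. The sign for Cdh5 at 72 h depends on the reference, with -0.59 (95% interval -1.11 to -0.06) against the other 39 and 0.04 against the 6 reference genes.

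**Figure D5:**
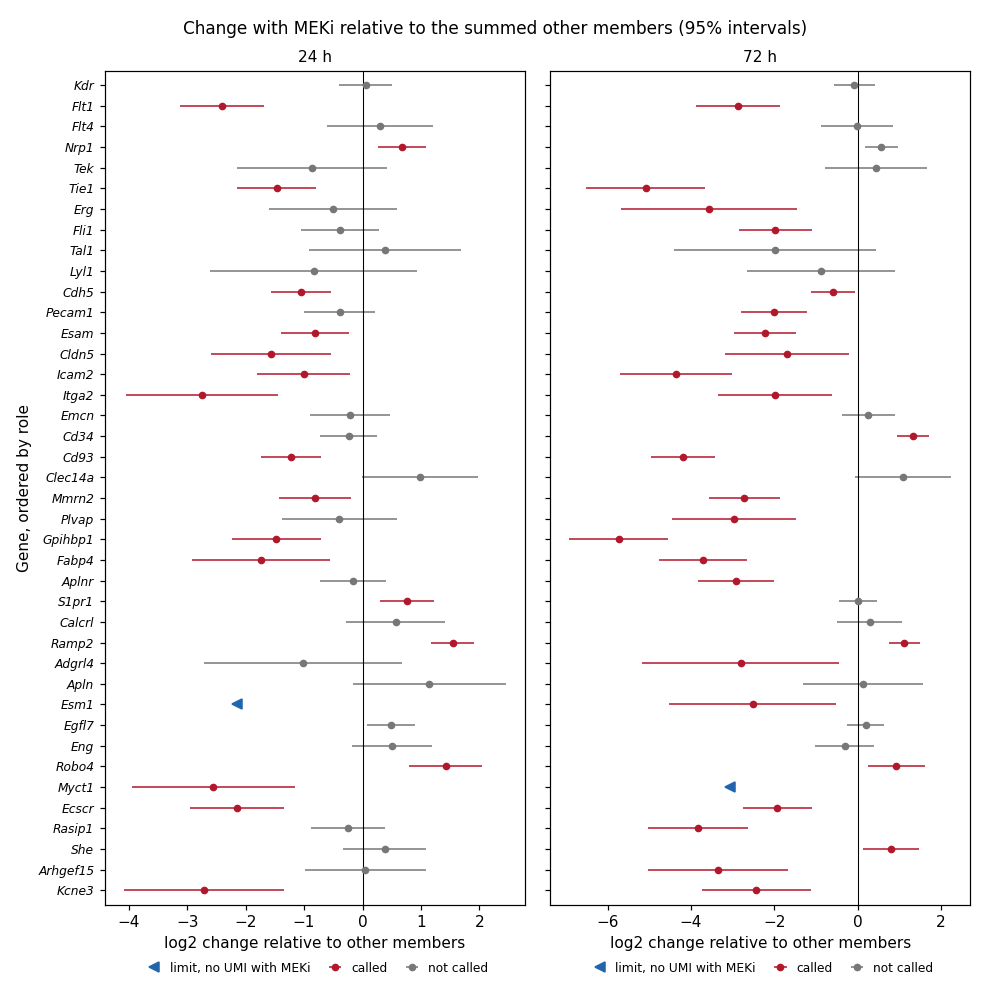
Log2 change with MEKi of each gene relative to the summed other 39 genes at 24 h and 72 h, with 95% intervals as bars and called genes in red. Blue triangles mark the limits for Esm1 at 24 h and Myct1 at 72 h, and the other points run from -2.74 to 1.54 at 24 h and from -5.74 to 1.33 at 72 h, where a single factor would put all at 0.

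Ratios of paired genes, chosen after their values were seen and so given with no test, are on a log2 scale with a pseudocount of 0.5. Flt1 over Kdr was -0.15 ± 0.36 in DMSO and -3.28 ± 2.08 with MEKi at 24 h, and -1.10 ± 0.44 in DMSO and -3.59 ± 1.16 with MEKi at 72 h. Tie1 over Cdh5 was -0.99 ± 0.29 in DMSO and -1.29 ± 0.95 with MEKi at 24 h, and -1.61 ± 0.44 in DMSO and -5.09 ± 0.72 with MEKi at 72 h. Gpihbp1 over Cdh5 was -1.15 ± 0.44 in DMSO and -1.46 ± 0.79 with MEKi at 24 h, and -0.21 ± 0.40 in DMSO and -4.69 ± 0.81 with MEKi at 72 h.

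Compared with uncultured XY gonads, 24 h of culture with MEKi left 32 of the 40 genes lower and none higher, beside 6.21% and 8.2% of all genes, and edgeR gave 1 higher at an unadjusted p below 0.05. Cdh5 was 41.2 ± 6.55 CPM at 0 h and 8.20 ± 2.89 CPM after MEKi (-2.29 ± 0.30), Tie1 26.1 ± 7.98 and 3.18 ± 0.988 CPM, and Pecam1 21.0 ± 1.48 and 5.53 ± 1.91 CPM. The genes not called were Nrp1 (0.46 ± 0.18), Clec14a, Calcrl, Ramp2, Apln, Eng, Robo4 (0.18 ± 0.34) and She.

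FGFRi at 72 h left 1 of the 40 genes lower and none higher, beside 0.939% and 0.866% of all genes. This was Ramp2, at 56.7 ± 3.66 CPM in DMSO and 38.3 ± 8.16 CPM with FGFRi (-0.59 ± 0.14, adjusted p = 0.0128), and its call was lost in 10 of 16 alternatives. Left-out libraries moved the count to 3 (FGFRi M2), 2 (FGFRi M4) or 0 (FGFRi M5 or M6, DMSO M2 or M4). The log2 change was negative for 37 genes with a median of -0.55, against -0.0004 over all genes. At an unadjusted p below 0.05 edgeR gave 11 lower and 0 higher, counts with no share over all genes beside them. Cdh5 was 21.2 ± 6.68 CPM with FGFRi and 23.7 ± 6.95 CPM in DMSO (95% interval of the log2 change -0.70 to 0.39), and Tie1 7.32 ± 0.952 and 8.01 ± 3.58 CPM (-0.83 to 0.62). At 24 h, where treatment and sequencing pool cannot be told apart, Emcn (8.17 ± 2.53 CPM with FGFRi and 15.8 ± 4.54 in DMSO) and Eng (6.72 ± 2.58 and 14.4 ± 0.816 CPM) were lower, 2 of 40 beside 1.59% of all genes, none was called higher beside 1.69%, and edgeR gave 10 lower and 0 higher at an unadjusted p below 0.05. The log2 change at 24 h was negative for 32 genes with a median of -0.40, against -0.0005 over all genes. The count at 24 h was 4 without DMSO library M2, 0 without DMSO library M4 and 1 without FGFRi library M4 or M5.

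The MEKi and FGFRi comparisons at 72 h share their DMSO libraries, so the inhibitors were also compared directly, at the same dose and time. MEKi gonads were lower for 21 genes and higher for 2, beside 4.69% and 1.74% of all genes. Gpihbp1 (-6.09 ± 0.66), Tie1 (-5.59 ± 0.76) and Cd93 (-4.62 ± 0.49) were lower with MEKi, and Cd34 (0.69 ± 0.17, adjusted p = 0.00445) and Ramp2 (0.80 ± 0.14, adjusted p = 3.98e-05) were higher. Emcn (95% interval -0.30 to 1.05), Tek (-0.85 to 1.75), Eng (-0.66 to 0.74) and Nrp1 (-0.25 to 0.37) were not called.

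Between the sexes, 11 of the 40 genes were lower and 1 higher in XX than in XY gonads at 0 h (9.32% and 8.01% of all genes). At 24 h in DMSO 27 were lower and 1 higher (10.3% and 9.24%), and at 72 h 9 were lower and none higher (10.8% and 9.47%), where edgeR gave 1 higher at an unadjusted p below 0.05. The median log2 differences were -0.74, -1.18 and -0.43. Cdh5 was 23.8 ± 11.8 CPM in XX and 41.2 ± 6.55 CPM in XY gonads at 0 h, 20.4 ± 7.18 and 50.96 ± 7.16 CPM at 24 h, and 17.9 ± 2.63 and 23.7 ± 6.95 CPM at 72 h (-0.78 ± 0.26, -1.29 ± 0.24 and -0.41 ± 0.28, the last not called). The count at 0 h was 6 without XX library F3, and at 72 h it was 4 without XX library F11 or XY library M4 and 5 without XX library F7 or XY library M5. Markers of other cells differed too: 3, 7 and 3 of 9 erythroid genes, 2, 5 and 4 of 8 pericyte genes, 2, 3 and 3 of 3 interstitial genes, 3, 3 and 2 of 4 Leydig genes and all 5 Sertoli genes were lower in XX gonads at 0, 24 and 72 h. In the other direction, 1 pericyte gene at 0 h, 1 germ cell gene at 24 h and 1 Leydig gene at 72 h were higher in XX gonads. Of 2 duct genes, 1, 2 and 2 were higher in XX gonads at 0, 24 and 72 h. Summed pericyte levels at 24 h were 144 to 179.7 CPM in XX and 334 to 459 CPM in XY gonads, and 4 of 7 VEGF and angiopoietin ligands were lower in XX. The part of these cells in the differences of the 40 genes was not tested.

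S1pr1 was the gene called higher in XX gonads, at 70.8 ± 14.01 CPM against 30.9 ± 5.47 CPM at 0 h and 59.9 ± 8.54 against 29.9 ± 1.55 CPM at 24 h, and at 45.9 ± 6.69 against 33.1 ± 8.45 CPM at 72 h it was not called. Aplnr was 23.9 ± 4.37 CPM in XX and 35.5 ± 9.07 CPM in XY gonads at 0 h (not called), 3.99 ± 2.26 and 66.7 ± 14.4 CPM at 24 h (-3.94 ± 0.32, adjusted p = 7.77e-15), and 2.92 ± 2.83 and 18.0 ± 5.67 CPM at 72 h. Nrp1 was 46.0 ± 5.51 and 47.9 ± 7.68 CPM at 0 h, 50.3 ± 4.20 and 133 ± 30.0 CPM at 24 h, and 68.9 ± 21.6 and 175 ± 16.0 CPM at 72 h.

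The change from 0 h to 24 h differed between the sexes for 3 genes in an interaction test added after the data were seen, beside 6.2% of all genes. It was lower in XX gonads for Aplnr (-3.36 ± 0.44, adjusted p = 1.73e-07), Eng (-1.99 ± 0.44, adjusted p = 0.00147) and Nrp1 (-1.37 ± 0.24, adjusted p = 9.06e-05). Eng was 12.1 ± 4.00 CPM at 0 h and 4.28 ± 1.28 CPM at 24 h in XX gonads, and 10.2 ± 3.18 and 14.4 ± 0.816 CPM in XY gonads. For 24 h to 72 h, edgeR and DESeq2 called 0 of the 40 genes (2.04% of all genes in edgeR), with 2 lower and 8 higher at an unadjusted p below 0.05, and 2 were called without XY 72 h DMSO library M5.

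A list of further endothelial genes was chosen with earlier results of these data known, so it is no independent check. Of its 21 tested genes, 14 fell at 24 h and 13 at 72 h with MEKi and none rose (medians -2.10 and -1.39). The other 7 and 8 were not called, and 1 fell at 24 h and 2 at 72 h with FGFRi. Over all tested genes 1.98% fell and 1.29% rose with MEKi at 24 h, and 4.19% and 2.29% at 72 h. With FGFRi 1.59% of all genes fell at 24 h and 0.939% at 72 h. Sox7, a transcription factor of early vessels, fell from 15.8 ± 4.00 CPM in DMSO to 0.236 ± 0.273 CPM with MEKi at 24 h and from 6.17 ± 3.58 to 0.237 ± 0.474 CPM at 72 h. The NOTCH ligand Dll4 was 11.3 ± 5.77 and 0.892 ± 1.25 CPM at 24 h and 2.44 ± 1.81 and 0.0955 ± 0.191 CPM at 72 h, falling at both times, whereas the flow-responsive factor Klf2 had values of 0.85 and 0.52 and was not called. Of 7 VEGF and angiopoietin ligands, Vegfc (-1.92), Angpt1 (-1.38) and Pgf (-0.73) fell at 24 h, and Angpt2, a ligand of TEK, rose at 72 h (1.03). Of 11 genes that report ERK activity, 9 fell at 24 h and 11 at 72 h with MEKi, such as Dusp6 (-1.86 and -2.16), and 4 fell at 24 h and 2 at 72 h with FGFRi (medians -0.45 and -0.20). In all these FGFRi counts at 24 h, treatment and sequencing pool cannot be told apart.

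Markers of other cell types in the sorted fraction were counted beside these results, and the shares over all genes are those just given. Of 8 tested pericyte genes, 6 fell at 24 h and 6 at 72 h with MEKi, and the summed level was 334 to 459 CPM in DMSO and 157 to 219 CPM with MEKi at 24 h, and 323 to 422 CPM and 176 to 201 CPM at 72 h. With FGFRi 1 pericyte gene fell at 24 h and 4 at 72 h (medians -0.42 and -0.77), and the summed level was 258 to 319.9 CPM and 137 to 295 CPM. Of 9 macrophage genes, 1 fell at 24 h and 7 at 72 h with MEKi, and 2 and 6 with FGFRi, and the summed level at 72 h was 51.4 to 168 CPM in DMSO, 28.7 to 43.6 CPM with MEKi and 21.0 to 34.0 CPM with FGFRi. None of 3 interstitial or 2 duct genes was called with MEKi, 2 of 5 Sertoli genes, 1 of 9 erythroid genes and 1 of 4 proliferation genes fell at 72 h, 3 of 4 Leydig genes rose at 72 h after 1 fell at 24 h, and 3 of 4 germ cell genes rose at 24 h. The part of these cells in the levels of the 40 genes was not tested. Here too, treatment and sequencing pool cannot be told apart for FGFRi at 24 h.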

How the data were processed

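3′ UMI libraries of GFP-negative gonadal cells were measured in 40 samples of 10 groups. The deposited values are raw UMI counts per gene, which the authors made with scPipe and Rsubread on GRCm39 with GENCODE genes and UMI deduplication, steps that the methods describe for the germ cell libraries. Versions and the annotation release are not given in the sources used here. Of 42422 identifiers, 40391 matched GENCODE M39, which gave symbols and coordinates. Totals ran from 1380707 to 4836550, so low genes carry large counting error, and intervals and floors of counts cover that error only. Counts were tested with edgeR 4.0.16 (R 4.3.3): filterByExpr, TMM scaling, group means without covariates over all libraries, quasi-likelihood test, Benjamini-Hochberg adjustment over 15125 genes. For relative changes the summed counts of the other members served as the offset. Scripts were tested on simulated counts. Alternatives were other scalings and filters, DESeq2 1.42.0, voom with treat in limma 3.58.1, a replicate block, fits of the compared groups alone and each library left out. The members, lists and tests were chosen with earlier results of these data known. All 40 members are named, and library values are given for 11 chosen genes and for the 3 largest and 3 smallest changes with MEKi at each time.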

Additional observations from a re-analysis of the deposited data

Results flagged for a closer look

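Dixon's 95% criterion, which chance meets in about 1 of 20 groups, was tested in 80 sets, each a gene or the summed members in a group. In 6 of the 80, all of single genes, the highest library stood apart from the other 3. In XY 24 h DMSO these were Emcn at 22.6 CPM (next 14.3), Plvap at 12.1 CPM (next 6.90) and Kcne3 at 22.6 CPM (next 9.96). With MEKi they were Myct1 at 2.28 CPM at 24 h, and Esm1 at 0.948 CPM and Tie1 at 0.314 CPM at 72 h, each with no UMI in the other 3 libraries. Where the other 3 libraries have no UMI, any count meets the criterion, so the rate of 1 in 20 does not apply there.

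The MEKi change differed between 72 h and 24 h for Cd34 by 2.23 ± 0.29 on the log2 scale (edgeR, adjusted p = 2.01e-06) and for Rasip1 by -2.65 ± 0.72 (adjusted p = 0.0426). The Rasip1 call was lost in most alternatives, and these 2 calls among the 40 genes stand beside 1.41% of all genes. The change from 0 h to 24 h differed between XX and XY gonads for Aplnr by -3.36 ± 0.44 (adjusted p = 1.73e-07), for Eng by -1.99 ± 0.44 (adjusted p = 0.00147) and for Nrp1 by -1.37 ± 0.24 (adjusted p = 9.06e-05), in a test added after the data were seen. These 3 calls among the 40 genes stand beside a near share, 6.2%, of all genes.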

How the results depend on the processing

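Voom with quality weights and treat called fewer members: 13 for MEKi at 72 h, 3 for MEKi against FGFRi, 0 and 0 for FGFRi at 72 and 24 h, 2, 10 and 3 between the sexes at 0, 24 and 72 h, 2 and 1 for 0 to 24 h in XY and XX, 0 for the MEKi interaction and 1 for the added interaction of sex from 0 to 24 h. For MEKi at 24 h voom with treat lost calls as well, among them those of Adgrl4, Egfl7, Eng, Erg and Fabp4. Fits of the compared groups alone, whose filter left fewer members, called 17 for MEKi at 72 h, 13 for MEKi against FGFRi, 4 for FGFRi at 24 h and 4 for the MEKi interaction. Without a filter on low counts 5 were called for FGFRi at 24 h, 7 for the MEKi interaction, and 5 and 2 for the added interactions from 0 to 24 h and 24 to 72 h. For FGFRi at 72 h RLE scaling, the 1 CPM filter and DESeq2 called 0, the 1 CPM filter called 1 in the MEKi interaction, and total counts called 4 for FGFRi at 24 h. The cause was not tested.

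With each library left out in turn, counts ran from 28 to 31 for MEKi at 24 h (29 without M2, which its pool's description does not name), 22 to 26 for MEKi at 72 h, 0 to 4 and 0 to 3 for FGFRi at 24 and 72 h, 18 to 23 for MEKi against FGFRi, 6 to 17, 22 to 30 and 4 to 10 between the sexes, 6 to 8 and 3 to 6 for 0 to 24 h in XY and XX (6 without XY M6, 3 without XX F5), 28 to 30 for MEKi against 0 h, 1 to 3 for the MEKi interaction (1 without 24 h DMSO M3 or M5, 24 h MEKi M1 or M6, 72 h DMSO M2 or M4, or 72 h MEKi M3 or M5), and 3 to 4 and 0 to 2 for the added interactions.

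Values near 0 changed sign with 1 library left out: the log2 change of Apln at 24 h ran from -0.751 to 0.0103 (positive without DMSO M4), and at 72 h that of Clec14a from -0.429 to 0.619 (negative without DMSO M6 or MEKi M4), Robo4 from -0.133 to 0.348 (negative without DMSO M4 or MEKi M4) and She from -0.177 to 0.201 (positive without DMSO M2, DMSO M4 or MEKi M2, and 0.00611 without a filter). Relative to the members' median, Cdh5 (1.33), Cldn5 (0.262) and Ecscr (0.0310) turned positive at 72 h, as Cdh5 did against 6 reference genes (0.0394).

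Residuals of same-numbered libraries correlated between -0.162 and 0.118, and those of differently numbered libraries between -0.174 and 0.188. These correlations gave no sign of pairing by number, but cannot show whether libraries shared a litter or culture day. With the replicate block the counts were 28 and 25 for MEKi at 24 and 72 h, 1 and 1 for FGFRi, 23 for MEKi against FGFRi, 3 and 8 for 0 to 24 h in XX and XY, 30 for MEKi against 0 h and 2 for the interaction. Depth limits the low genes most: members held as few as 0 UMIs in a library.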
